A study of Mus musculus with 8 samples.

Results

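Stromal cultures from marrow carrying MLL-AF9 leukaemia were compared with stromal cultures from marrow carrying AE9a leukaemia, both in mice with an intact Id1 gene. MLL-AF9 is the fusion of KMT2A (MLL) with MLLT3 (AF9), and it is known for holding the homeobox genes of the HOXA cluster and their cofactor MEIS1 active in leukaemia cells. AE9a is a truncated form of the RUNX1-RUNX1T1 (AML1-ETO) fusion, which binds RUNX1 target genes and blocks myeloid differentiation. Bone marrow stromal cells (BMSC) are the adherent mesenchymal cells of the marrow, known for making the matrix and the signals, CXCL12 and KIT ligand among them, that hold blood stem cells and leukaemia cells in place.

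The members were 4 of the 8 samples of the series: the MLL-AF9 Id1+/+ replicates 1 and 2, and the AE9a Id1+/+ replicates 1 and 2. In each case marrow and bone were harvested from host mice 6 weeks after they had received leukaemia cells, the adhering cells were grown in α-MEM with 10% serum, and RNA was taken once attached cells were seen. The other 4 samples were the same cultures from Id1-/- hosts of either leukaemia, where Id1 encodes an inhibitor of basic helix-loop-helix factors. The labels give neither the age nor the sex of the mice, do not say how many mice a culture came from, and describe no step that removed leukaemia cells or macrophages before RNA extraction.

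The deposited values were raw counts per gene name, in one table for each leukaemia. The AE9a Id1+/+ columns were not separate measurements: replicate 1 equalled replicate 2 plus 134 counts for 17957 of 17958 genes above 1 count, Id1 being the exception, so replicate 2 alone was used. That left 2 MLL-AF9 libraries of 21480068 and 22510346 counts against 1 AE9a library of 20967896 counts. The comparison covered the 15849 gene names found once in each table, which held 99.5% of the counts in each MLL-AF9 library and 95.6% in the AE9a library, and 15086 of these passed the filter on low counts. Because each leukaemia has its own table, leukaemia model and table cannot be told apart in any value that follows.

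Folds were estimated with edgeR's quasi-likelihood test in a fit of 6 libraries, the 3 Id1+/+ ones and the 3 usable Id1-/- ones. The lone AE9a library was assumed to vary as the MLL-AF9 pairs did, and p-values measure the spread between libraries, which are not labelled as separate animals. A gene was called where the adjusted p (Benjamini-Hochberg over all genes tested) was under 0.05 and the change was at least 2-fold. Levels are CPM, the counts of shared gene names scaled to 1 common library size with TMM factors, and log2 folds are MLL-AF9 over AE9a. The 2 MLL-AF9 libraries lay close together: the chi-square of their difference had a median of 2.12 over genes well covered in both (100 counts or more), against 31.0 and 24.1 between each of them and the AE9a library. The Y-linked genes Ddx3y, Eif2s3y and Kdm5d had 0 counts in all 3 libraries, and Xist, which female cells express, had 178 and 232 CPM in MLL-AF9 against 615 CPM in AE9a.

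Of the genes tested, 1548 (10.3%) rose and 1535 (10.2%) fell in MLL-AF9 cultures, 20.4% in all, and the median log2 fold was 0.03. These counts cover shared names only: a gene named for AE9a alone could not be called lower, nor one named for MLL-AF9 alone higher. The limit is uneven, as the AE9a values came in 55421 rows and the MLL-AF9 values in 15994. Without a match were 191 AE9a names with 20 or more counts in Id1+/+ replicate 2, and 115 MLL-AF9 names at any count. Without the 2-fold threshold 3750 (24.9%) were higher and 3682 (24.4%) lower. Scaling by library totals raised the scale by 0.14 on the log2 scale and gave 1850 higher and 1220 lower, so that 60.3% of calls were higher, against 50.2% with TMM. The gene lists described here were chosen with earlier results of these data known, so the counts for each list are read beside those percentages and carry no test of their own. In bulk RNA, fewer cells of a type and less RNA per cell cannot be told apart.

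Although the samples are labelled as mesenchymal cells, genes of macrophages and their lysosomes were among the most abundant in both models. Per kilobase of exon, Lyz2 (lysozyme) reached 11770 CPM in MLL-AF9 and 21820 CPM in AE9a cultures, Psap (prosaposin) 7886 and 10730 CPM, and Gpnmb, a glycoprotein of lipid-laden macrophages and osteoclasts, 3390 and 6233 CPM. The 27 macrophage and monocyte markers tested made up 5.35% and 5.23% of counts in MLL-AF9 libraries and 7.5% in the AE9a library. Most of that came from Gpnmb (21750 and 22420 CPM against 40600 CPM) and Lyz2 (16690 and 14280 CPM against 28720 CPM). The 21 mesenchymal markers made up 0.0929% and 0.115% in MLL-AF9 and 0.481% in AE9a, and the AE9a value came mainly from Lrp1, a scavenger receptor that macrophages also carry, at 4822 CPM. Among markers known from marrow stroma, Cxcl12 stood at 85.0 and 72.4 CPM against 76.4 CPM, Grem1 at 60.7 and 63.6 CPM against 37.6 CPM, and Cdh11 at 41.1 and 45.6 CPM against 23.6 CPM. Pdgfra stood at 9.55 and 13.2 CPM against 7.55 CPM, and Thy1 at 0.637 and 0.455 CPM against 0.227 CPM. By these shares the macrophage list held more of the counts than the mesenchymal list in all 3 libraries.

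The genes that MLL-AF9 is known for were high in the MLL-AF9 cultures and near 0 in the AE9a culture. Hoxa9 (GRCm38 chr6:52223100-52231089, minus strand), the homeobox gene most closely tied to MLL-rearranged leukaemia, had 139 and 147 CPM in MLL-AF9 libraries against 1.48 CPM in the AE9a library. The log2 fold was 6.59 (SE 0.20). Lack of overlap with 1 library is common: of all genes tested, 46.2% were higher and 43.4% lower in both MLL-AF9 libraries. Hoxa7 had 81.8 and 79.5 CPM against 1.08 CPM, a log2 fold of 6.22 (SE 0.20). Hoxa10 had 52.2 and 49.99 CPM against 1.99 CPM, a log2 fold of 4.68 (SE 0.19). For all 3 genes both MLL-AF9 libraries stood far above the AE9a library. Meis1, the cofactor of HOXA9, had 66.6 and 65.4 CPM against 3.35 CPM, a log2 fold of 4.30 (SE 0.17). Mecom, which encodes the transcription factor EVI1 and is a target of MLL fusions, had 48.2 and 53.9 CPM against 0.341 CPM, a log2 fold of 7.20 (SE 0.26).

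Of the 15 tested members of the HOXA and MEIS1 programme, 12 rose, none fell and 3 were not called, with a median log2 fold of 3.995, or 3.91 with the gene at 0 counts in AE9a at its bound. Hoxa2 was that gene, with 1.81 and 2.32 CPM in MLL-AF9 against 0 counts in AE9a, at least 12.2-fold higher when 3 counts are taken as the limit of a count of 0. Hoxa3 (7.35 and 8.56 CPM against 0.341 CPM), Hoxa5 (12.8 and 11.2 CPM against 0.795 CPM) and Hoxa11 (12.3 and 9.65 CPM against 0.681 CPM) also rose, so the rise ran along the cluster. Pbx3, another HOXA9 cofactor, did not share it: it had 5.49 and 6.19 CPM in MLL-AF9 and 8.40 CPM in AE9a, a log2 fold of -0.52 (SE 0.20). Eya1, which the fusion is also known to bind, had 92.5 and 103 CPM against 54.7 CPM and missed the 2-fold threshold. The exons of 9 of the 15 members overlap those of another gene, such as Mir196b at Hoxa9 and Hoxaas3 at Hoxa7, and whether strand was used in counting is not given in the sources used here. Among members with no such overlap, 4 rose, Hoxa5 and Hoxa10 among them, with a list median of 1.67. Several granule genes of myeloid cells moved with the HOXA genes, as described next. The part of leukaemia or other blood cells in the cultures' RNA was not tested.

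The genes that the fusions are made from went the other way or did not move. Kmt2a had 27.1 and 37.4 CPM in MLL-AF9 libraries against 189 CPM in AE9a, a log2 fold of -2.55 (SE 0.14). Mllt3 had 4.56 and 5.19 CPM against 17.6 CPM, a log2 fold of -1.85 (SE 0.18). Runx1 (80.1 and 92.1 CPM against 103 CPM, log2 fold -0.26), its partner Cbfb (106 and 103 CPM against 102 CPM) and Runx1t1 (0.441 and 0.501 CPM against 0.341 CPM) were not called. The tables hold gene totals, so reads from a fusion transcript cannot be separated from those of the host gene.

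**Figure D1:**
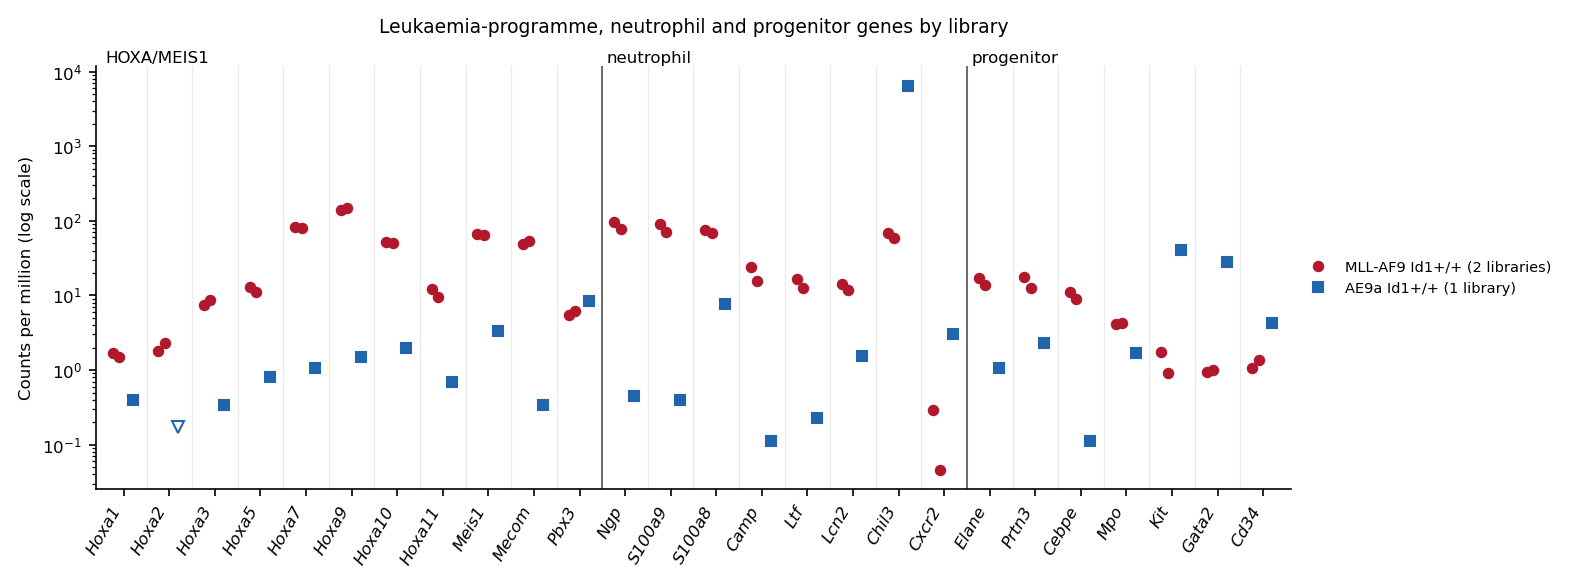
Level of each gene (CPM, log axis) in the 2 MLL-AF9 Id1+/+ libraries (red circles) and the 1 AE9a Id1+/+ library (blue squares), for HOXA and MEIS1 genes, neutrophil genes and myeloid progenitor genes; an open triangle marks 0 counts, drawn at the level of 3 counts. Hoxa9 stands at 139 and 147 CPM against 1.48 CPM, while Chil3, Kit and Gata2 are lower in MLL-AF9.

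Several granule genes of neutrophils and their precursors were likewise higher in the MLL-AF9 cultures. S100a9 (calprotectin subunit, chr3:90692632-90695721, minus strand) had 90.8 and 71.4 CPM in MLL-AF9 against 0.397 CPM in AE9a, a log2 fold of 7.65 (SE 0.31; edgeR quasi-likelihood, adjusted p = 2.411e-11). Ngp (neutrophilic granule protein) had 96.6 and 77.6 CPM against 0.454 CPM, a log2 fold of 7.56 (SE 0.27). Its neighbour in function, Camp (cathelicidin), had 24.1 and 15.7 CPM against 2 counts (0.114 CPM), with a 95% counting interval of the ratio from 47.9 to 1435. Ltf (lactoferrin, 16.8 and 12.8 CPM against 0.227 CPM) and S100a8 (75.6 and 68.3 CPM against 7.78 CPM) rose too, so both calprotectin subunits were higher, S100a9 by more. Of 13 neutrophil genes tested, 8 rose and 2 fell, with a median log2 fold of 4.68, or 3.21 with genes at 0 counts at their bounds; DESeq2 called 1 lower. Mmp8 (226 and 216 CPM against 198 CPM) and Csf3r (107 and 108 CPM against 120 CPM) were not called. Cxcr2 fell, with 0.294 and 0.0455 CPM against 3.07 CPM, a call that was lost with DESeq2. Chil3, a chitinase-like protein of neutrophils and alternatively activated macrophages, fell most, with 69.6 and 58.9 CPM in MLL-AF9 against 6506 CPM in AE9a. Its log2 fold was -6.66 (SE 0.12; edgeR quasi-likelihood, adjusted p = 4.947e-15), and because of it the summed share of the list was lower in MLL-AF9 (0.07% and 0.0641%) than in AE9a (0.601%).

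Among 15 myeloid progenitor genes, 6 rose and 4 fell. The list median log2 fold was 0.41 here and -0.33 in Id1-/- cultures. The primary granule proteases Elane (17.0 and 13.8 CPM against 1.08 CPM, log2 fold 3.83, SE 0.32) and Prtn3 (17.9 and 12.8 CPM against 2.33 CPM) rose, as did Mpo (4.16 and 4.23 CPM against 1.70 CPM). Cebpe, the transcription factor of terminal granulocyte differentiation, had 11.2 and 8.88 CPM in MLL-AF9 against 2 counts in AE9a, with a counting interval of the ratio from 24.2 to 728. Ms4a3, a gene of granulocyte and monocyte progenitors, also rose, with 1.67 and 0.911 CPM against 1 count and a counting interval of the ratio from 3.86 to 903. Among those that fell, Kit, the receptor for KIT ligand, had 1.76 and 0.911 CPM in MLL-AF9 against 40.5 CPM in AE9a, a log2 fold of -4.93 (SE 0.23). Gata2 had 0.931 and 1.002 CPM against 28.2 CPM, a log2 fold of -4.85 (SE 0.20). Cd34 (1.08 and 1.37 CPM against 4.26 CPM) and Myb (3.28 and 2.78 CPM against 7.78 CPM) fell less, and the general myeloid factors Spi1 (544 and 518 CPM against 376 CPM) and Irf8 (214 and 215 CPM against 215 CPM) were not called.

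Kit and Gata2 are also known from mast cells and basophils. Of the list of megakaryocyte, mast cell and basophil genes 5 could be tested, of which 1 rose and 1 fell, the platelet genes Ppbp (5.19 and 5.92 CPM in MLL-AF9 against 1.02 CPM in AE9a) and Itga2b (2.79 and 1.91 CPM against 8.18 CPM), with a median log2 fold of 0.35. Outside that list, 3 genes known from mast cells, gathered here with their values known, were lower in MLL-AF9. Hdc, which encodes the histamine-forming enzyme histidine decarboxylase, had 0.343 and 0.0911 CPM in MLL-AF9 against 44.8 CPM in AE9a, a log2 fold of -7.68 (SE 0.32). Slc18a2, the vesicular monoamine transporter, had 0.833 and 0.683 CPM against 30.5 CPM, a log2 fold of -5.33 (SE 0.21). Tal1, a partner of GATA factors, had 0.294 and 0.228 CPM against 17.9 CPM. These 3 were among the 15 largest falls of tested genes that averaged 10 CPM or more in either group. So were Mcoln3 (0.343 and 0.228 CPM against 83.4 CPM, log2 fold -8.17), Chil3, Kit and Gzmb (granzyme B, 0.147 and 0.455 CPM against 26.4 CPM). The mast cell protease and IgE receptor genes Cpa3, Tpsb2, Fcer1a and Ms4a2 are named in the AE9a table only, and their level in MLL-AF9 cultures was not analysed here. In the AE9a library itself Cpa3 had 352 CPM and Fcer1a 19.7 CPM, scaled to that table's own total. Erythroid genes were lower in MLL-AF9 as well (4 of 5 tested): Hba-a1 had 0.588 and 0.273 CPM against 12.4 CPM, and Tfrc, the transferrin receptor, had 96.5 and 101 CPM against 1280 CPM, a log2 fold of -3.70 (SE 0.10).

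Transcripts of antibody-secreting cells appeared in MLL-AF9 cultures. Igkc had 12.6 and 13.8 CPM against 0 counts in AE9a, at least 77.7-fold higher, and Igha had 10.2 and 12.2 CPM against 0 counts, at least 65.8-fold higher. Ighm had 29.7 and 29.7 CPM against 2.95 CPM, a log2 fold of 3.33 (SE 0.23). All of these remained under 30 CPM, and 4 of the 7 B lymphocyte and plasma cell genes tested rose.

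**Figure D2:**
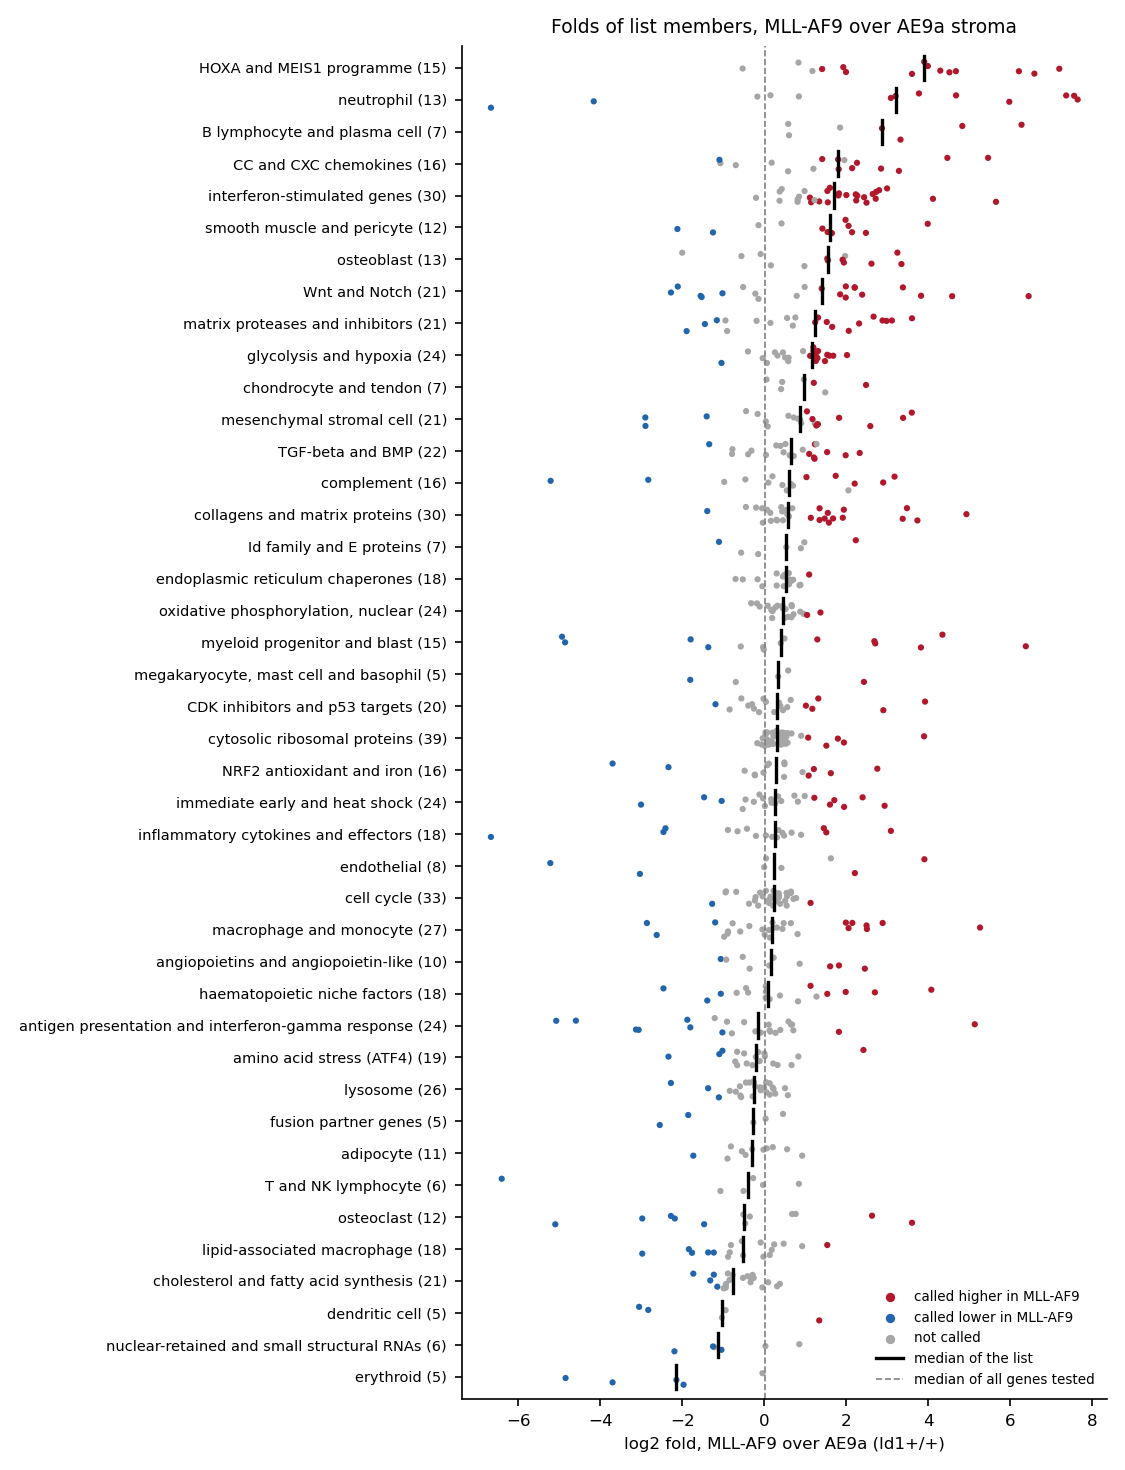
Log2 fold of MLL-AF9 over AE9a Id1+/+ cultures for every tested member of each list with at least 5 tested members, number in brackets; red and blue mark genes called higher and lower, black bars the list medians, the dashed line the median of all genes, and genes at 0 counts in either group stand at their bound. The HOXA and MEIS1, neutrophil, chemokine and interferon lists lie to the right, while the neutrophil and progenitor lists also hold genes far to the left.

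Genes induced by type I interferon were higher in MLL-AF9 cultures. These genes are switched on when interferon signalling brings transcription factors to an interferon-stimulated response element, whose core holds GAAA repeats a pair of bases apart, and many encode sensors or blockers of viral RNA. The windows of RefSeq (build GRCm38.p6) from 250 bases before the transcript start to 50 after it were searched on both strands for GAAANNGAAA, with overlapping matches counted. The stretch before the start is shown for 4 genes that differ in response or in motif, with each match in capitals. Ifit3 (chr19:34583279-34583528, plus strand) and Oas1a (chr5:120907526-120907775, minus strand) rose and hold the motif, Irf7 (chr7:141266425-141266674, minus strand) rose and holds none in this window, and Isg15 (chr4:156200819-156201068, minus strand) holds it and was not called.
Ifit3: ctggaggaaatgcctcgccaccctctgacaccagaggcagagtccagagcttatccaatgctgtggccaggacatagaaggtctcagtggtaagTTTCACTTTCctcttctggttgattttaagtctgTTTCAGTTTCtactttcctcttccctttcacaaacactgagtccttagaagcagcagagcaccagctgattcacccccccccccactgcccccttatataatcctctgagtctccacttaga
Oas1a: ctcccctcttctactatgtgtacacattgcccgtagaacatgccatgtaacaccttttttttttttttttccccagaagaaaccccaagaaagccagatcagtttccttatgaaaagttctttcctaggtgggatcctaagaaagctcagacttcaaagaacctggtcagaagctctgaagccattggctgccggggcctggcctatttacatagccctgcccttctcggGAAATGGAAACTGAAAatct
Irf7: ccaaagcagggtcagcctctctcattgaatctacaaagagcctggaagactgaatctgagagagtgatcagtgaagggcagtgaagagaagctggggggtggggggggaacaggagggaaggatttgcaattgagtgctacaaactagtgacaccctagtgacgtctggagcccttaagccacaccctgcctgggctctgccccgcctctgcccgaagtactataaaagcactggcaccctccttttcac
Isg15: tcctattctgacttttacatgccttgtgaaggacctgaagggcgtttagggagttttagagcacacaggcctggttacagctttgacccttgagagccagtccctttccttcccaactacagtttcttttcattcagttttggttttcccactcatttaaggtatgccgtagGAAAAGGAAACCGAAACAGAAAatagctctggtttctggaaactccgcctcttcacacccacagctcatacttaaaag
The motif was found in 12 of the 20 interferon-stimulated genes with a window (60%), against 424 of 10811 genes tested that have one (3.92%). Among the 15 of those genes that rose, 8 held it, and among the 5 that were not called, 4 held it, so the letters did not separate the genes that rose.

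Of the 30 interferon-stimulated genes, 21 rose, none fell and 9 were not called, with a median log2 fold of 1.71. Ifit3, an RNA-binding effector, had 14.5 and 13.3 CPM in MLL-AF9 against 0.795 CPM in AE9a, a log2 fold of 4.12 (SE 0.29). Irf7, the factor that amplifies interferon production, had 61.9 and 60.8 CPM against 7.67 CPM, a log2 fold of 3.0 (SE 0.14; edgeR quasi-likelihood, adjusted p = 1.916e-10). The synthetases that activate RNase L moved together, Oas1a at 110 and 97.8 CPM against 18.3 CPM, Oas2 at 41.9 and 43.9 CPM against 6.13 CPM, and Oas3 at 116 and 130 CPM against 26.0 CPM. Ifitm3, which blocks viral entry, had 298 and 291 CPM against 44.2 CPM, a log2 fold of 2.74 (SE 0.11). The members differed widely: Isg15, the ubiquitin-like modifier, had 19.0 and 17.4 CPM against 14.0 CPM (log2 fold 0.38, SE 0.17; edgeR quasi-likelihood, adjusted p = 0.0702). The RNA sensor Ifih1 had 21.1 and 26.5 CPM against 27.3 CPM and was not called either. Of the list, 29 members were higher in both MLL-AF9 libraries than in AE9a, against 46.2% of all genes tested. Among members whose exons overlap no other gene, 15 rose, and the list median was 1.55; the count excludes Rtp4 (56.5 and 53.04 CPM against 1.08 CPM), which shares exons with Gm45338.

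Chemokines rose in number as well, 9 of 16 tested against 1 that fell, with a median log2 fold of 1.81. With the GC and length correction 3 fell and the median was 1.5. With a replicate block in the fit 2 fell and the median was 1.44. In Id1-/- cultures 5 rose and 5 fell, with a median of 0.48. Of the 22 chemokines listed, 16 were in both tables. Ccl8, at 437 CPM of its own table's total in the AE9a Id1+/+ library, is named for AE9a only and was not compared. Ccl2 (chr11:82035571-82037453, plus strand), which draws monocytes through CCR2, had 199 and 177 CPM in MLL-AF9 against 19.2 CPM in AE9a, a log2 fold of 3.29 (SE 0.13). Cxcl14 had 123 and 119 CPM against 5.45 CPM, a log2 fold of 4.47 (SE 0.15), and Cxcl5, a neutrophil attractant, had 16.02 and 14.6 CPM against 0.341 CPM, a log2 fold of 5.46 (SE 0.33). Both MLL-AF9 libraries stood above the AE9a library for each, as they did for 46.2% of all genes tested. Ccl9 had 667 and 566 CPM against 128 CPM, and Ccl7 had 95.3 and 69.1 CPM against 23.3 CPM, whereas Ccl6 had 116 and 111 CPM against 241 CPM and fell, a call that was lost with library totals as the scale. Cxcl12, the stromal chemokine that retains leukaemia cells, had 85.0 and 72.4 CPM against 76.4 CPM, and the AE9a value lay between those of the 2 MLL-AF9 libraries.

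The class II antigen presentation genes ran opposite to the interferon-stimulated genes. H2-Aa had 0.833 and 1.002 CPM in MLL-AF9 against 31.1 CPM in AE9a, a log2 fold of -5.07 (SE 0.22). H2-Eb1 had 0.735 and 0.637 CPM against 16.6 CPM, and H2-Ab1 had 4.56 and 3.96 CPM against 35.5 CPM, so the 3 class II chains were all lower. Cd74, the invariant chain that escorts class II molecules, had 25.8 and 22.7 CPM against 84.3 CPM, a log2 fold of -1.80 (SE 0.16). Class I did not follow: H2-K1 had 1483 and 1463 CPM against 1363 CPM and was not called, and Psmb8, an immunoproteasome subunit, had 101 and 105 CPM against 29.1 CPM and rose. Of the 24 genes of antigen presentation and the interferon-gamma response, 2 rose and 7 fell. Itgax (CD11c), a marker of dendritic cells and of some macrophages, had 155 and 170 CPM in MLL-AF9 against 1150 CPM in AE9a, a log2 fold of -2.83 (SE 0.10).

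**Figure D3:**
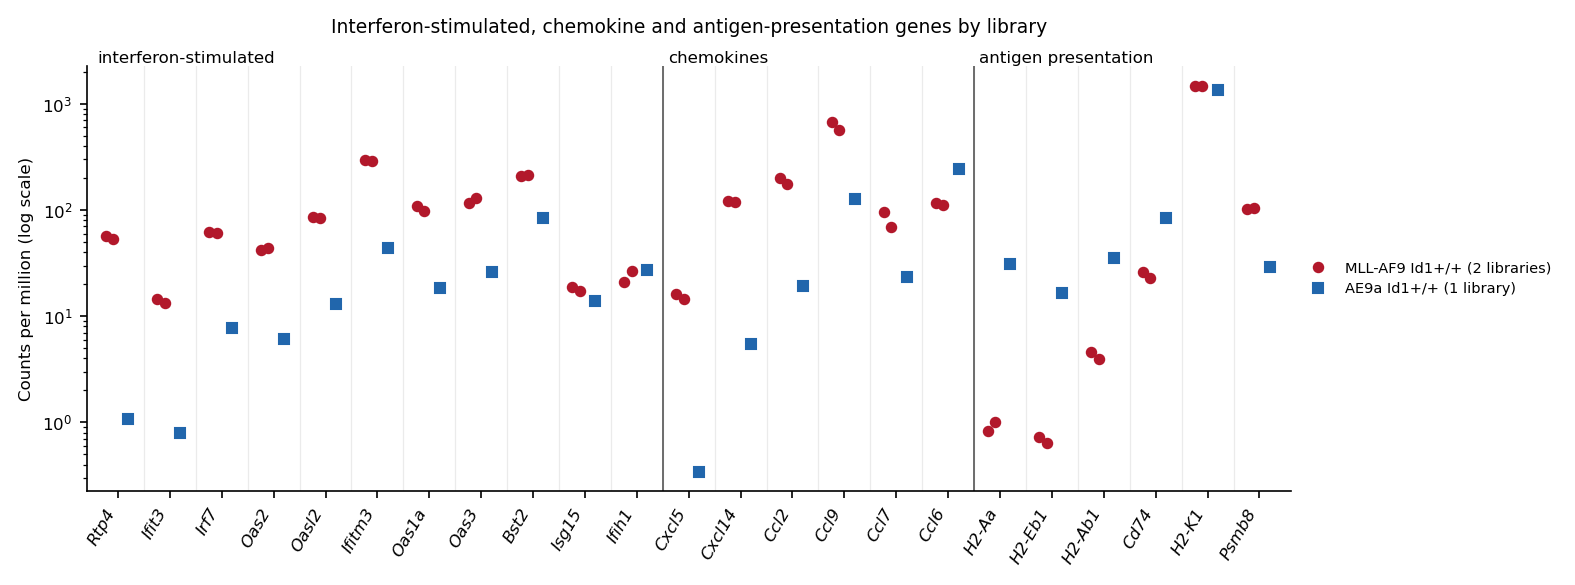
Level of each gene (CPM, log axis) in the 2 MLL-AF9 Id1+/+ libraries (red circles) and the 1 AE9a Id1+/+ library (blue squares) for interferon-stimulated genes, chemokines and antigen-presentation genes. Irf7 stands at 61.9 and 60.8 CPM against 7.67 CPM, Isg15 and Ifih1 lie close together in both models, and the class II genes are lower in MLL-AF9.

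Adgre1 (F4/80), a general macrophage marker, had 544 and 564 CPM in MLL-AF9 against 549 CPM in AE9a (log2 fold 0.01, SE 0.10), and Csf1r had 974 and 966 CPM against 997 CPM. Other general myeloid markers differed by less than 2-fold, Itgam (CD11b) with a log2 fold of -0.97 (SE 0.10), Tyrobp with 0.82 (SE 0.10) and Fcgr3 with -0.77 (SE 0.10), while Fcer1g stood at 0.22 (SE 0.12). Lyz2, at 16690 and 14280 CPM against 28720 CPM, missed the 2-fold threshold. Among the genes that rose, the endotoxin co-receptor Cd14 had 293 and 263 CPM against 62.6 CPM (log2 fold 2.15, SE 0.15), and the Fc receptor Fcgr1 had 58.4 and 58.5 CPM against 10.3 CPM (log2 fold 2.50, SE 0.14). Cx3cr1 (34.9 and 35.6 CPM against 6.19 CPM) and Ccr2 (20.4 and 21.4 CPM against 4.996 CPM), the chemokine receptors that mark monocyte subsets, rose with them. Among those that fell, Mrc1, the mannose receptor, had 83.9 and 93.7 CPM against 644 CPM (log2 fold -2.86, SE 0.10), and Clec7a, the β-glucan receptor dectin-1, had 192 and 177 CPM against 1133 CPM (log2 fold -2.62, SE 0.09). Among scavenger receptors of macrophages, Cd163 was not called, with 1.13 and 0.728 CPM against 0.852 CPM. Msr1 was not called either, with 143 and 143 CPM against 214 CPM (log2 fold -0.58, SE 0.10). Marco rose, with 2.30 and 2.55 CPM against 1 count and a counting interval of the ratio from 7.51 to 1707. Of 27 macrophage genes, 7 rose and 3 fell, with a median log2 fold of 0.20 that became -0.12 after correction for GC content and length. Without MLL-AF9 replicate 1, 5 fell.

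Osteoclasts arise from the same lineage, and 5 of their 12 tested genes fell while 2 rose. Atp6v0d2, a proton pump subunit of resorbing osteoclasts, had 176 and 166 CPM in MLL-AF9 against 1344 CPM in AE9a, a log2 fold of -2.97 (SE 0.09). The protease Ctsk had 23.2 and 22.4 CPM against 110.2 CPM, and the integrin Itgb3 had 54.1 and 57.6 CPM against 253 CPM. Mmp9, which macrophages and neutrophils also make, rose with 41.3 and 44.7 CPM against 3.52 CPM, a log2 fold of 3.61 (SE 0.17). Dcstamp, which osteoclast precursors need to fuse, rose as well, with 17.7 and 14.8 CPM against 2.61 CPM, a log2 fold of 2.63 (SE 0.25). Tnfsf11 (RANKL), the ligand that starts osteoclast formation, had 6.86 and 6.78 CPM in MLL-AF9 against 0.397 CPM in AE9a, a log2 fold of 4.08 (SE 0.37).

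Matrix and osteoblast genes, the part of the signal nearest to the labelled cell type, were higher in MLL-AF9 cultures. Of 30 collagens and matrix proteins, 13 rose and 1 fell, with a median log2 fold of 0.63, or 0.59 with a gene at 0 counts at its bound and 1.42 over members that share no exon with another gene. Col3a1 (chr1:45311538-45349706, plus strand), the fibrillar collagen of loose connective tissue, had 108 and 115 CPM in MLL-AF9 against 3.63 CPM in AE9a, a log2 fold of 4.94 (SE 0.16). The collagen VI chains Col6a1 (65.8 and 76.7 CPM against 6.36 CPM, log2 fold 3.49, SE 0.17) and Col6a2 (42.0 and 43.1 CPM against 3.18 CPM, log2 fold 3.74, SE 0.19) rose together. The collagen I chains rose less, Col1a1 with 181 and 225 CPM against 69.1 CPM and Col1a2 with 310 and 338 CPM against 108 CPM, at log2 folds of 1.56 (SE 0.14) and 1.58 (SE 0.11). Of 13 osteoblast genes, 7 rose and none fell: Alpl, the alkaline phosphatase, had 14.8 and 14.3 CPM against 1.42 CPM, and Sparc (osteonectin) had 480 and 480 CPM against 125 CPM. Spp1 (osteopontin), which macrophages also secrete, had 10330 and 9633 CPM against 3428 CPM, a log2 fold of 1.54 (SE 0.10). The contractile gene Acta2 rose too, with 531 and 498 CPM against 130 CPM. Endothelial genes were mixed, 2 of 8 higher and 2 lower: Erg, an endothelial transcription factor also found in leukaemia, had 18.4 and 19.4 CPM in MLL-AF9 against 1.25 CPM in AE9a, while Kdr, the VEGF receptor, had 0.784 and 1.002 CPM against 33.5 CPM.

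The mesenchymal markers themselves were divided, with 8 of 21 higher and 3 lower (5 higher with DESeq2). Ly6a (Sca-1), a stem and stromal cell antigen, had 40.0 and 38.8 CPM in MLL-AF9 against 3.75 CPM in AE9a, a log2 fold of 3.39 (SE 0.18). Prrx1, the limb mesenchyme factor, had 33.7 and 34.6 CPM against 13.7 CPM, a log2 fold of 1.31 (SE 0.13). Lrp1 fell, with 550 and 744 CPM against 4822 CPM (log2 fold -2.90, SE 0.14), and so did Gas6, the ligand of the phagocyte receptors AXL and MERTK, with 53.7 and 54.0 CPM against 400.3 CPM (log2 fold -2.89, SE 0.09). Pdgfrb, at 27.4 and 29.4 CPM against 15.2 CPM, and Kitl, at 4.11 and 5.33 CPM against 6.42 CPM, were not called. Of 18 niche factors, 5 rose and 3 fell, with a median log2 fold of 0.09. Jag1, a Notch ligand, rose with 72.4 and 72.0 CPM against 18.2 CPM, a log2 fold of 1.99 (SE 0.13). Those that fell were Fn1 (fibronectin, 274 and 346 CPM against 809 CPM), Il6 (0.441 and 0.319 CPM against 2.1 CPM) and Angpt1 (0.980 and 0.819 CPM against 1.87 CPM). The call of Fn1 was lost with the GC and length correction, and that of Angpt1 under 9 of the 11 alternatives in which it was tested. Outside that list, Il11, an interleukin-6 family cytokine of stromal cells, rose with 15.5 and 15.6 CPM against 0.227 CPM, a log2 fold of 6.06 (SE 0.36). Inhibitors of matrix proteases split by gene: Timp1 had 262 and 257 CPM against 32.7 CPM and rose, while Timp2 had 322 and 322 CPM against 1192 CPM and fell.

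**Figure D4:**
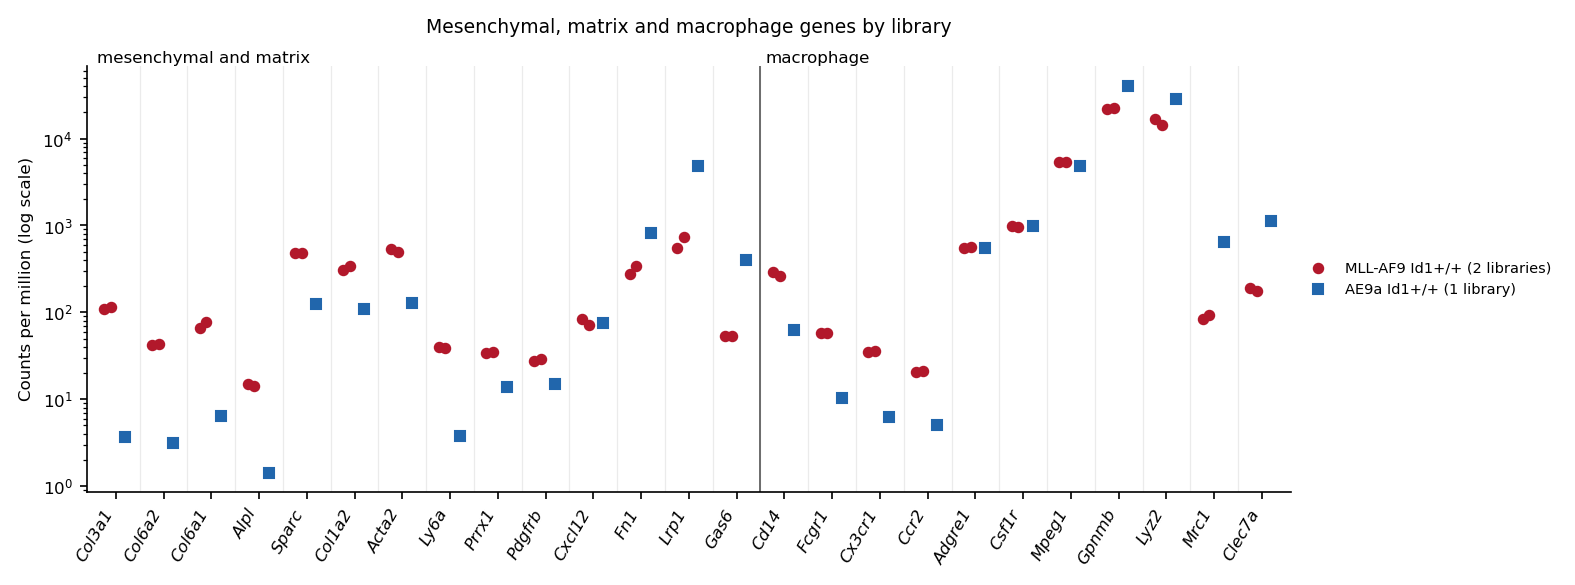
Level of each gene (CPM, log axis) in the 2 MLL-AF9 Id1+/+ libraries (red circles) and the 1 AE9a Id1+/+ library (blue squares) for mesenchymal and matrix genes and for macrophage genes. Collagen genes are higher in MLL-AF9, Lrp1, Mrc1 and Clec7a are lower, and Adgre1 and Csf1r lie close together.

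Metabolic genes were set apart by pathway. Glycolysis and hypoxia genes were higher in MLL-AF9, 13 of 24 against 1 lower, with a median log2 fold of 1.16: Pkm (pyruvate kinase) had 3703 and 3847 CPM against 1531 CPM, Ldha (lactate dehydrogenase) had 1514 and 1432 CPM against 640 CPM, and Tpi1 had 1015 and 953 CPM against 327 CPM. Hk2, the hexokinase at the head of the pathway, had 48.9 and 52.0 CPM against 104 CPM and fell, though not when library totals or the GC and length correction were used. Sterol and fatty acid synthesis genes held 4 that fell of 21 and none that rose, with a median log2 fold of -0.77; Fasn (fatty acid synthase) had 35.2 and 37.3 CPM against 120 CPM. The cholesterol exporters of macrophages fell with them, Abcg1 with 72.5 and 74.0 CPM against 261 CPM and Abca1 with 26.8 and 35.3 CPM against 105 CPM. Of 16 genes of the antioxidant response and of iron handling, 4 rose and 2 fell: the iron exporter Slc40a1 (ferroportin) rose, with 178 and 171 CPM against 56.5 CPM, while the importer Tfrc fell, as given above. Ftl1, the ferritin light chain, had 10480 and 9121 CPM against 1445 CPM, but its reads can be shared with pseudogenes and with overlapping genes, and that value is uncertain.

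Of 33 cell cycle genes 1 rose and 1 fell, Tyms (11.8 and 10.7 CPM against 5.11 CPM) and Mki67 (12.7 and 16.8 CPM against 35.5 CPM), with a median log2 fold of 0.23; 3 fell without MLL-AF9 replicate 2, and the call of Mki67 was lost with the GC and length correction. Of 20 CDK inhibitors and p53 targets, 5 rose and 1 fell, against 2 and 2 with the GC and length correction. Among them Cdkn2c (p18) and Cdkn1c (p57) rose, Cdkn2c with 130 and 122 CPM against 8.29 CPM and Cdkn1c with 137 and 148 CPM against 19.0 CPM, at log2 folds of 3.93 (SE 0.14) and 2.91 (SE 0.13). Cdkn2a, the p16 and ARF locus, had 3.43 and 4.19 CPM against 8.69 CPM and fell, at a log2 fold of -1.19 (SE 0.20). In the Wnt and Notch list 11 of 21 rose and 5 fell, and 2 fell with the GC and length correction. In Id1-/- cultures 7 rose and none fell. The secreted Wnt modulator Dkk3 had 27.7 and 28.9 CPM against 1.99 CPM, and Wnt5a had 11.95 and 14.3 CPM against 2.84 CPM. The receptor Fzd1 had 9.16 and 10.4 CPM against 47.2 CPM.

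Id1, the gene that the study deleted in other hosts, was intact in all 3 libraries and had 34.6 and 28.8 CPM in MLL-AF9 against 21.7 CPM in AE9a. Its log2 fold was 0.54 (SE 0.15), under the 2-fold threshold, and -0.00341 with the GC and length correction. Id1 is also the one gene above 1 count that broke the constant between the AE9a columns. It had 317 counts in replicate 1 and 383 in replicate 2, where the other genes had 134 more in replicate 1. The fold given rests on replicate 2, and its value with the other column was not tested. Id2, its relative, had 153 and 128 CPM against 302 CPM and fell, a call that was lost with library totals and without MLL-AF9 replicate 2. Angptl7, a secreted angiopoietin-like protein, had 67.5 and 75.3 CPM in MLL-AF9 against 91.1 CPM in AE9a, a log2 fold of -0.35 (SE 0.11). Its relative Angptl4, a lipase inhibitor, had 41.0 and 39.2 CPM against 13.1 CPM and rose.

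The same contrast in Id1-/- hosts used 3 other libraries of the same tables, so it repeats the difference between tables with other RNA. Part of the Id1 counts remained in the Id1-/- libraries, at 11.5 and 11.9 CPM in MLL-AF9 and 4.44 CPM in AE9a. The Y-linked genes, at 0 in the Id1+/+ libraries, were present at low levels in MLL-AF9 Id1-/- libraries and not in the AE9a Id1-/- library: Ddx3y had 1.323 and 0.161 CPM, Eif2s3y 2.14 and 0.484 CPM and Kdm5d 2.04 and 0.269 CPM, against 0 counts in AE9a, and all 3 were called. Their part, and that of the remaining Id1 counts, in the differences between genotypes was not tested. There 1417 genes (9.39%) rose and 979 (6.49%) fell. Of the 1548 genes that rose in Id1+/+ cultures, 927 (59.9%) rose in Id1-/- cultures and 1459 (94.3%) had a positive log2 fold. Of the 1535 that fell, 642 (41.8%) fell in Id1-/- cultures and 1476 (96.2%) had a negative one. Mecom (log2 fold 6.58 in Id1-/-), Meis1 (3.47), Chil3 (-6.94), Kit (-5.55), Hdc (-6.15), Irf7 (2.59) and Col3a1 (3.9) kept their direction, and 11 of the 15 HOXA and MEIS1 genes and 19 of the 30 interferon-stimulated genes rose there.

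The fold of other genes differed between the Id1+/+ and the Id1-/- libraries. Each genotype has 1 usable AE9a library, so on the AE9a side genotype and single library cannot be told apart. The difference between the Id1+/+ and Id1-/- log2 folds was tested in the same fit and passed an adjusted p of 0.05 for 1550 genes (10.3%). Ccl2 had 62.9 and 66.2 CPM in MLL-AF9 Id1-/- against 68.0 CPM in AE9a Id1-/- libraries, a log2 fold of -0.08 in place of 3.29 in Id1+/+ (edgeR quasi-likelihood, adjusted p of the difference 3.832e-08). Ccl7 had 41.0 and 39.1 CPM against 101 CPM there, so its sign was opposite to that in Id1+/+ cultures. Grem1, a BMP antagonist of stromal progenitors, had 52.5 and 53.4 CPM against 187 CPM in Id1-/-, a log2 fold of -1.82, and 60.7 and 63.6 CPM against 37.6 CPM in Id1+/+, a log2 fold of 0.73. Angptl7 had 34.4 and 33.9 CPM against 4.23 CPM in Id1-/-, a log2 fold of 3.01, where the Id1+/+ fold was -0.35. The mesenchymal list as a whole had a median log2 fold of -0.41 in Id1-/- cultures, with 1 member higher and 5 lower, against 0.88 in Id1+/+ cultures.

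**Figure D5:**
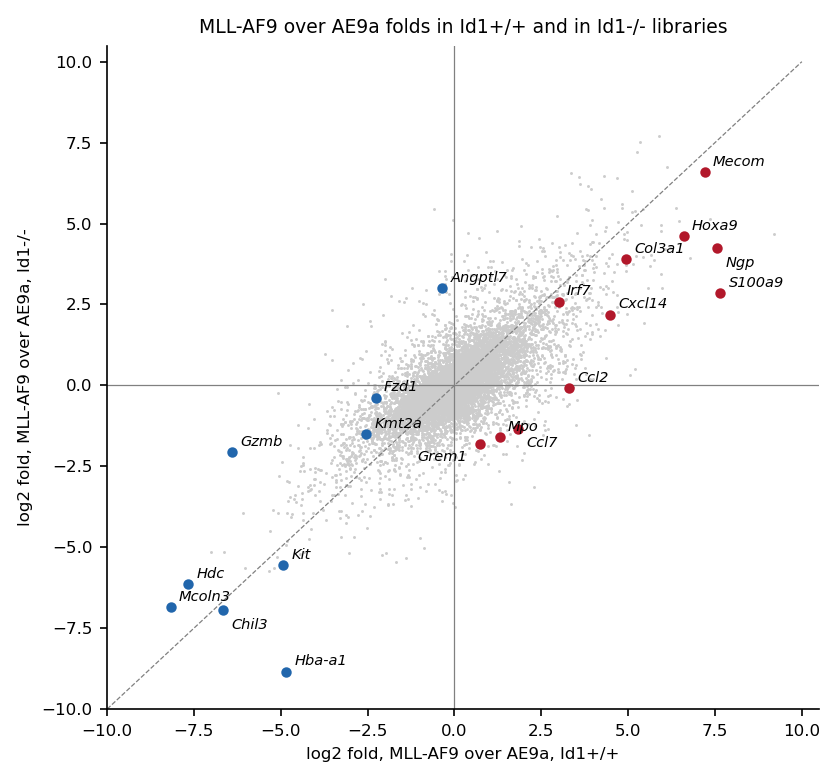
Log2 fold of MLL-AF9 over AE9a in Id1+/+ cultures (x axis) against that in Id1-/- cultures (y axis), 1 grey point for each of 14690 genes above 0 counts in all 4 groups, the dashed line marking equal folds and named genes in red or blue by the sign in Id1+/+. Mecom, Kit and Chil3 lie near the line, Ccl2 lies near 0 on the y axis, and Angptl7 lies above the line at 3.01 against -0.35.

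The fold also moved with gene length and base composition. The median log2 fold was 0.41 in the fifth of the genes with the shortest exons and -0.40 in the fifth with the longest. It was -0.18 in the fifth with the lowest GC content of the longest transcript and 0.25 in the fifth with the highest. Of 6 nuclear-retained and small structural RNAs tested 3 fell, with a list median of -1.13 and members from -2.19 to 0.86. The median of that list in Id1-/- cultures was 0.03. Malat1 had 245 and 337 CPM against 1324 CPM, Neat1 had 627 and 692 CPM against 1356 CPM, and Kcnq1ot1 had 1.42 and 1.82 CPM against 3.86 CPM. With offsets for GC content and length 1 of them fell, the calls of Neat1 and Kcnq1ot1 being lost, and the list median was -0.30. Without those offsets, cytosolic ribosomal protein genes had a median log2 fold of 0.30. The part of length, GC content and RNA quality in each gene's fold was not tested gene by gene; with offsets for length and GC content 1205 of the 1548 genes stayed higher and 1138 of the 1535 stayed lower.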

How the data were processed

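RNA from cultured mouse marrow cells was prepared with an Illumina TruSeq kit and sequenced on a NovaSeq instrument, per the labels. The authors deposited raw counts per gene name, 1 table for each leukaemia model. Per the submitters' processing notes, mm10 was the genome and the tools were HISAT2 2.2.1, fastp 0.22.0, DESeq2 1.32.0 and featureCounts 2.0.1; their roles are not stated, and the strand setting and annotation release are not given in the sources used here. The AE9a Id1+/+ replicate 1 and Id1-/- replicate 2 columns, as deposited by the authors, equal the other column of their genotype plus a constant, so they were treated as a score and left out.

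Gene names found once in each table were joined, 763 with low counts were removed by filterByExpr, and counts were scaled with TMM and fitted with edgeR 4.0.16 in R 4.3.3 (4 groups, 2 residual degrees of freedom, common biological coefficient of variation 0.0758). The script was tested on simulated data. Positions and exon overlaps came from GENCODE M21, which matched 15671 of the 15849 names; the tables carry names of different annotation releases. Levels given per library are CPM, and levels of single genes are compared with each other only per kilobase. The shares of lists are summed counts without scaling for length. Counting intervals are exact 95% binomial ones and cover counting error only.

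The members and the 44 gene lists were chosen with earlier results of these data known. Genes were named by rule: the 15 largest called folds in each direction among genes that averaged 10 CPM or more in either group, the 10 most abundant names of each group, up to 4 called members per list and direction, defining markers, Id1 and Angptl7. Further list members are given as examples, chosen with their values known. Alternatives were DESeq2 size factors, library totals, DESeq2 1.42.0, limma-voom (limma 3.58.1), other filters, the 3 Id1+/+ libraries alone, leaving out each MLL-AF9 replicate, a replicate block, GC and length offsets, other call rules and, chosen after seeing the data, genes without exon overlap and TMM without genes called at 4-fold.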

Additional observations from a re-analysis of the deposited data

Results flagged for a closer look

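Of 162 genes named here, 46 had a fold between MLL-AF9 and AE9a that differed between Id1+/+ and Id1-/- cultures by at least 2-fold, with an adjusted p under 0.05 for the difference (edgeR quasi-likelihood). The values given here are the Id1+/+ log2 fold minus the Id1-/- log2 fold. Over all 15086 genes tested, 553 (3.67%) had such a difference; most genes named here were chosen for their fold in Id1+/+ cultures, so the shares are not comparable. The sign was opposite in Id1-/- cultures for 10 of the 46.

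Leukaemia and granule genes were among them. Hoxa9 (1.99), Hoxa7 (1.92), Hoxa10 (1.87) and Hoxa5 (2.05) were high in MLL-AF9 libraries of both genotypes, and the AE9a libraries had more in Id1-/- (4.77 CPM of Hoxa9) than in Id1+/+ (1.48 CPM). S100a9 differed by 4.80, Ngp by 3.32, Ltf by 2.99, Elane by 2.21 and Mpo by 2.91, and Mpo had the opposite sign in Id1-/- (log2 fold -1.61). For S100a9, MLL-AF9 Id1-/- libraries had 39.9 and 34.4 CPM and the AE9a Id1-/- library 5.14 CPM. Kmt2a differed by -1.04, Cd34 by 1.59, Myb by 1.47, Tal1 by -2.15, Gzmb by -4.33, Hba-a1 by 4.0 and the platelet gene Ppbp by 2.92.

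Chemokine and other immune genes differed too. Ccl2 differed by 3.36, Ccl7 by 3.16, Cxcl5 by 3.55, Cxcl14 by 2.29, Ccl9 by 1.51 and Ccl6 by 1.27. The interferon-stimulated genes Rtp4 (1.63), Ifit3 (1.62) and Ifitm3 (1.36), the class II gene H2-Aa (-1.14) and the receptor Ccr2 (1.29) also differed.

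Stromal genes followed. Grem1 differed by 2.55, Cdh11 by 1.54, Pdgfra by 1.25 and Pdgfrb by 1.05, each with opposite signs in the 2 genotypes. Angptl7 differed by -3.36, Wnt5a by 2.06, Fzd1 by -1.90, Tnfsf11 by 2.17, Col3a1 by 1.04 and Lrp1 by -1.24. Mmp9 differed by 1.87, Timp1 by 1.74, Timp2 by -1.08, Ctsk by -1.13, Itgb3 by -1.06, Abcg1 by -1.09, Slc7a11 by -1.02, Tyms by 1.44 and Malat1 by -1.12.

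Some names occur in the AE9a table only, and no value was compared for them. In the AE9a Id1+/+ library the mast cell genes Cpa3 (352 CPM of that table's total), Cma1 (127), Tph1 (75.6), Fcer1a (19.7), Tpsb2 (17.2) and Ms4a2 (6.68) were above the 3 counts that a count of 0 allows, as was the chemokine Ccl8 (437). Cma1 and Tph1 were chosen after their values were seen. The AE9a Id1-/- library had 344 for Cpa3 and 403 for Ccl8. Mitochondrially encoded names, also in that table only, took 3.8% of its Id1+/+ counts.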

How the results depend on the processing

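No gene called in the main comparison was called in the opposite direction under any alternative; of the single-gene values, 2451 stayed on their side of the threshold, 61 lost the call and 3 gained it. The sign of 4 genes that were not called changed: Id1 (log2 fold -0.00341 to 0.68), Lgals3 (-0.19 to 0.39), Ctsb (-0.11 to 0.06) and Gm23935 (-0.70 to 0.52). With a minimum mean of 10 CPM, 635 genes were higher and 900 lower in MLL-AF9 Id1+/+ cultures, and 582 and 434 in Id1-/- cultures. At any fold these counts were 3750 and 3682 (Id1+/+) and 3780 and 2895 (Id1-/-), and at 4-fold 746 and 525, and 661 and 324. Without genes whose exons overlap another gene, 942 (Id1+/+) and 856 (Id1-/-) were higher, and the contrast differed between genotypes for 964 genes; DESeq2 gave 775 such genes. Leaving out either MLL-AF9 Id1+/+ replicate gave 1408 to 1481 higher and 1317 to 1629 lower genes (Id1+/+), 1315 to 1322 and 1076 to 1080 (Id1-/-), and 1245 to 1761 for the difference. With the replicate block, 1580 were higher and 1507 lower. The numbers pair 1 pair of MLL-AF9 groups only, whose deviations had r = 0.20 over 8872 genes, so they are taken as numbers alone. Limits: 1 AE9a library gives no spread of its own, model and table are inseparable, the annotation releases of the tables differ, and a fold against 0 counts is only a bound.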

Other observations

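Of 18 genes of lipid-associated macrophages, 1 rose and 5 fell in MLL-AF9 cultures, with a median log2 fold of -0.53; Fabp5, a fatty acid carrier, had 1082 and 949 CPM in MLL-AF9 against 2375 CPM in AE9a, a log2 fold of -1.23. Of 26 lysosome genes 3 fell (11.5%, against 10.2% of all genes tested) and none rose. Complement genes were split, 5 of 16 higher and 2 lower: Cfp (properdin), which stabilises the alternative-pathway convertase, had 606 and 554 CPM against 77.5 CPM, a log2 fold of 2.91. Arg1, an arginase of alternatively activated macrophages, had 1.67 and 1.23 CPM against 7.67 CPM and fell.

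Immediate early genes did not move as a group, 6 of 24 higher and 3 lower. Nr4a1 had 29.9 and 30.3 CPM in MLL-AF9 against 3.92 CPM in AE9a, a log2 fold of 2.94, and Fos had 329 and 314 CPM against 98.1 CPM. Egr2, which is induced in alternatively activated macrophages, had 19.5 and 16.6 CPM against 144 CPM, a log2 fold of -3.0. Of 22 genes of TGF-beta and BMP signalling, 7 rose and 1 fell; Inhba, the activin A subunit, had 74.5 and 92.7 CPM against 35.9 CPM. Ddit4, a stress-induced inhibitor of mTORC1, had 27.5 and 28.6 CPM against 5.22 CPM and rose, while the cystine importer Slc7a11 had 18.8 and 22.1 CPM against 103 CPM and fell. Few genes were called at 2-fold among endoplasmic reticulum chaperones (1 of 18 higher) and nuclear-encoded oxidative phosphorylation genes (2 of 24 higher). Without the 2-fold threshold 14 chaperones were higher and 2 lower, and 16 oxidative phosphorylation genes were higher and 1 lower. Of all genes tested 24.9% were higher by that rule. The list medians were 0.54 and 0.46, against 0.03 over all genes.

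Several of the largest single differences belong to no list. Mamdc2 had 20.03 and 17.6 CPM in MLL-AF9 against 655 CPM in AE9a, a log2 fold of -5.12, and the cationic amino acid transporter Slc7a2 had 3.97 and 3.55 CPM against 149.9 CPM. Cyp2s1 (17.1 and 18.8 CPM) and Qser1 (14.0 and 13.0 CPM) had 0 counts in AE9a, at least 105-fold and 79.1-fold higher in MLL-AF9, and the part of the annotation release in these zeros was not tested.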
